A study of Rattus norvegicus with 174 samples.

Results

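Collagen genes were followed in 6 tissues of rats exposed to phosphine, a gas used to fumigate stored grain, or to air. The genes were chosen by symbol alone: every array symbol made of Col, a number, the letter a and a number, such as Col1a1. Each gene was read from the brightest of its probe sets that list a single gene. This gave 37 collagen genes of 13438 genes in all, from 52 collagen probe sets, of which 24 genes had 1 probe set and 13 had several. No measured change entered the choice. Col4a3, Col6a4, Col6a6, Col19a1, Col25a1, Col27a1 and Col28a1 were not analysed here.

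The study put RNA of lung, heart, liver, kidney, brain and blood from 33 male Sprague-Dawley rats weighing 300 to 400 g, an outbred stock, on 174 Affymetrix rat arrays. The exposed rats breathed 660 ppm phosphine with the whole body in the chamber during 32.2 min, giving 21252 ppm x min, set by the series' design text at 0.91 of the median lethal product. Tissues were taken 1, 3, 6 or 24 h later, and every rat was killed under ketamine and xylazine. Each solid-tissue group had 4 rats, except the 6 h air groups with 2, and within a group the 5 solid tissues are from shared rats. For blood, 4 exposed and 4 air samples were taken at both 1 and 3 h, 5 exposed and 1 air at 6 h, and 2 exposed with no air at 24 h. Rats are named as in the labels, such as Rat729.

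Collagens are the main structural proteins of connective tissue, built from 3 chains wound into a triple helix. Fibrillar collagens such as types I and III form load-bearing fibrils, type IV forms the sheet of basement membranes, and type VI forms beaded filaments around cells. Smaller classes decorate fibrils, form networks, anchor epithelia or span the cell membrane. Fibroblasts, smooth muscle cells, pericytes, endothelial cells and liver stellate cells make most of them.

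The members fell into 8 classes: 10 fibrillar, 5 basement membrane, 4 beaded filament, 8 fibril-associated, 4 network forming or anchoring, 2 multiplexin, 3 transmembrane and 1 other collagen, Col26a1. RefSeq promoter windows on the rat assembly GRCr8 matched 29 of the 37 genes. The 3 stretches below are shown because the results below turn on these genes: the interval from which Col4a1 and Col4a2 are read in opposite directions, and the 250 bases before the listed start of Col24a1 and of Col7a1. Capitals mark a GC box, GGGCGG on either strand. CCAAT and TATAAA were also searched on both strands, and neither was found in the 3 stretches. The GC box does not overlap another motif.
Col4a1 and Col4a2, chr16:84885521-84885596, plus strand (the Col4a1 direction), 76 bases: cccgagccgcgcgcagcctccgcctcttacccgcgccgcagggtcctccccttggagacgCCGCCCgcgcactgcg
Col24a1, chr2:236872333-236872582, plus strand: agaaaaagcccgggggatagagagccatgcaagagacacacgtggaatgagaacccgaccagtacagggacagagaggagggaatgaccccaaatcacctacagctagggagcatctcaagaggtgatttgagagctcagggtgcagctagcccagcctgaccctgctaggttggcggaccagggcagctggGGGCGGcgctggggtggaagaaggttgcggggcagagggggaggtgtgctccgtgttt
Col7a1, chr8:118483114-118483363, plus strand: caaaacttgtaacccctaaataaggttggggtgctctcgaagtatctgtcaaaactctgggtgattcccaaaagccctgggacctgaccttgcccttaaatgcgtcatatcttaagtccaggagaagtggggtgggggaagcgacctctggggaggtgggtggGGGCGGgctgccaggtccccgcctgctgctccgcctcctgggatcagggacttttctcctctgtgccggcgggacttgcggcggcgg

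Each stretch held 1 GC box. Among 33469 promoter windows, 30.5% held a GC box in the 250 bases before the start, and 18.1% in the last 76 of them. For CCAAT the shares were 34.0% and 13%, and for TATAAA 12.9% and 4.61%. A match of letters is a description of the window and not a binding site.

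All values below are log2 intensities made by the authors with RMA, so that 1 is a 2-fold difference, and a difference is phosphine minus air unless stated otherwise. A gene was called at a limma p under 0.05 after Benjamini-Hochberg adjustment over all 13438 genes (adjusted p). The defining list of each tissue (alveolar epithelium, cardiomyocyte, hepatocyte, neuron, proximal tubule and red cell) was highest in its labelled tissue, with means of 10.22 to 12.82 there. Lists of minor cell types were less specific: meninges genes averaged 6.58 in kidney and 4.45 in brain, choroid plexus genes 5.8 and 4.36, and hepatic stellate genes 6.98 in heart and 6.82 in liver. In all, 9 solid-tissue arrays carried marker genes of another organ at 4 or more log2 above the median of their tissue. They were heart at 3 h (exposed Rat729, hepatocyte genes) and at 24 h (exposed Rat741, hepatocyte genes, and exposed Rat749, alveolar genes), lung at 1 h (exposed Rat716, hepatocyte genes) and at 3 h (exposed Rat729 and air Rat733, skeletal muscle genes), liver at 1 h (exposed Rat719, skeletal muscle genes) and at 24 h (exposed Rat741, distal nephron genes), and kidney at 1 h (air Rat720, hepatocyte genes). Calls after phosphine that are named below and that these arrays touch are given with and without them. The comparisons between tissues of air rats include the lung of Rat733 and the kidney of Rat720, and were not refitted without them. In tissue RNA, fewer collagen-making cells and less collagen RNA per cell cannot be told apart.

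The first question was where the collagens stand in unexposed rats. Lung led most often: 17 of the 37 genes had their highest air mean there. Heart had 6, blood 6, kidney 4, brain 2 and liver 2. The median over all genes was also highest in lung (6.04, with kidney next at 6.0), and the share of all genes highest there is not given. Some lung leads were slight, such as Col12a1 (0.05 above kidney) and Col23a1 (0.04 above blood). Others were wide, such as Col6a5 (5.24 above kidney). Each tissue was set against the mean of the other 5 over the air arrays (14 of each solid tissue, 9 of blood). That mean includes blood, where genes such as Col1a2 (3.57) and Col3a1 (3.87) stood lowest, and results without blood are not given. An excess or a count of a solid tissue can therefore come partly from blood. In lung, 24 collagens were higher (43.8% of all genes were) and 10 lower (41.9%), and the median collagen stood 0.97 above the other tissues, where the median of all genes stood 0.02 above. In brain, 5 collagens were higher (36.5% of all genes) and 28 lower (51.5%), with a median of -0.69 against -0.19 for all genes. Liver had 6 higher (36.1%) and 25 lower (43.7%), with a median of -0.47 against -0.07. With each array centred on its median, which moved the median of all genes in liver by 0.26, liver had 12 higher of 32 called collagens in place of 6 of 31. Heart had 16 higher (36.3%) and 12 lower (42.2%), with a median of 0.03, kidney 16 higher (40.7%) and 15 lower (39.9%), with -0.05, and blood 11 higher (33.7%) and 22 lower (55.9%), with -0.58. The median of all genes was -0.06 in heart, -0.01 in kidney and -0.44 in blood.

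**Figure D1:**
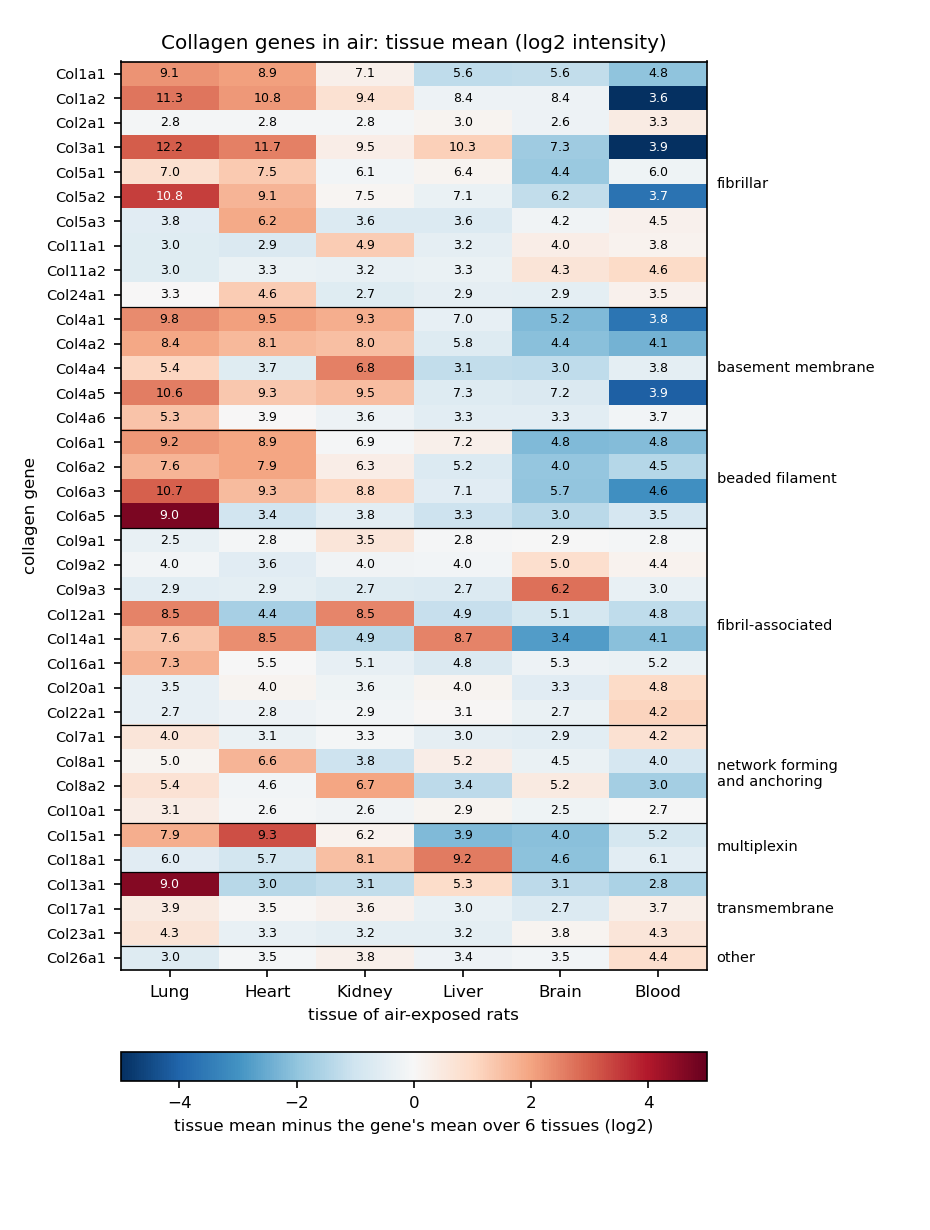
Mean log2 intensity of each of the 37 collagen genes (rows, by class) in the 6 tissues (columns) of air rats, printed in each cell; colour is the tissue mean minus the gene's own mean over the tissues, in log2. Lung and heart are red for Col1a1, Col1a2, Col3a1, Col5a2, Col4a1, Col4a2, Col4a5, Col6a1, Col6a2 and Col6a3, Col9a3 is red in brain only, and Col13a1 and Col6a5 stand at 8.98 and 9.03 in lung.

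The 10 fibrillar collagens split by tissue. In lung 5 were higher and 3 lower (Col5a3, Col11a1 and Col11a2), in heart 7 higher and 2 lower, and in brain 2 higher and 7 lower. Col1a1, Col1a2, Col3a1 and Col5a2 had their highest mean in lung. Col3a1, the chain of type III fibrils of distensible organs, averaged 12.18 ± 0.12 in lung and 11.65 ± 0.16 in heart (SD, n = 14 each), then 10.32 ± 0.19 in liver, 9.46 ± 0.29 in kidney, 7.34 ± 0.31 in brain and 3.87 ± 0.83 in blood (n = 9). No neighbouring tissues in that order overlapped over their arrays. Col1a2, a chain of type I collagen, averaged 11.34 ± 0.17 in lung and 10.82 ± 0.25 in heart, where arrays of these tissues overlapped, and 9.42 ± 0.29 in kidney. Its brain and liver means were both 8.38, and blood stood at 3.57 ± 0.51. Col1a1, the other type I chain, ran in the same order, from 9.10 ± 0.29 in lung to 4.83 ± 0.93 in blood. Col5a2, which sits inside type I fibrils, stood 4.13 ± 0.10 (SE) above the other tissues in lung, and Col3a1 stood 3.65 ± 0.10 above. The tissue means of Col3a1 and Col5a2 correlated at r = 0.95, and those of Col1a1 and Col1a2 at 0.86, over 6 tissues that share their arrays.

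The heart leaders, by excess over the other tissues, were largely shared with lung or liver. Col15a1, a collagen of the outer basement membrane zone of muscle and capillaries, was 9.29 ± 0.30 in heart, 3.85 ± 0.13 (SE) above the other tissues, with lung next at 7.89 ± 0.33 and no overlap between them. Col3a1 (3.02 ± 0.10 above), Col14a1 (2.81 ± 0.11), Col1a2 (2.60 ± 0.08) and Col4a1 (2.47 ± 0.07) followed. Of these, Col14a1 had its highest mean in liver and the others in lung. Besides Col15a1, the genes Col5a1, Col5a3, Col6a2, Col8a1 and Col24a1 had their highest mean in heart. Col24a1, a minor fibrillar collagen, stood at 4.61 ± 0.52, although its heart arrays overlapped those of blood (3.55 ± 0.55).

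Of the 5 basement membrane collagens, 5 were higher and none lower in lung, 4 higher and 1 lower (Col4a6) in kidney, and 3 higher and 1 lower (Col4a4) in heart. In brain and in liver all 5 were lower. Col4a1 and Col4a2 form the type IV trimer of nearly all basement membranes and are read from the shared interval printed above. Col4a1 averaged 9.80 ± 0.19 in lung, 9.50 ± 0.27 in heart, 9.28 ± 0.16 in kidney, 7.05 ± 0.16 in liver, 5.25 ± 0.21 in brain and 3.79 ± 0.39 in blood. Col4a2 kept the same order of tissues, and the means of both genes correlated at r = 0.99 over the 6 tissues. Col4a4, a chain of the kidney filter and lung type IV network, was 6.82 ± 0.21 in kidney and 5.36 ± 0.22 in lung, and between 3.01 and 3.80 in the other tissues. It led the kidney collagens with an excess of 3.04 ± 0.08 (SE), before Col12a1 (2.93 ± 0.09), Col8a2 (2.35 ± 0.10), Col4a1 (2.20 ± 0.07) and Col4a5 (1.85 ± 0.08). Col4a5, the X-linked chain found with Col4a4, was 10.55 ± 0.13 in lung and 9.53 ± 0.18 in kidney. Of the beaded filament collagens, 4 of 4 were higher in lung than in the other tissues. The other probe sets of Col12a1, both dim, and 1 other probe set of Col11a1 had their highest mean in blood, unlike the ones used.

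A pair of genes stood far higher in lung than in the other tissues. Col6a5, a type VI chain, averaged 9.03 ± 0.20 in lung and no more than 3.79 in any other tissue, an excess of 5.64 ± 0.09 (SE). Col13a1, a transmembrane collagen of cell adhesion sites, averaged 8.98 ± 0.18 in lung, 5.30 ± 0.61 in liver and no more than 3.15 elsewhere, an excess of 5.52 ± 0.09. Col6a3, the large type VI chain, had an excess of 3.57 ± 0.08 there. The arrays of lung did not overlap those of the next tissue for any of these 3 genes.

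Liver, brain and blood each had a few leaders. Col18a1, the source of the fragment endostatin, was 9.21 ± 0.24 in liver, 3.12 ± 0.08 (SE) above the other tissues, with kidney next at 8.11 ± 0.15. Col14a1, which binds fibril surfaces, was 8.70 ± 0.15 in liver, overlapping the heart at 8.54 ± 0.28, with an excess of 3.00 ± 0.11. The next liver collagens were Col3a1 (1.42 ± 0.10), Col13a1 (1.11 ± 0.09) and Col8a1 (0.41 ± 0.12). Col3a1 in liver (10.32) stood below lung (12.18) and heart (11.65), and the low blood mean (3.87) enters its excess. Brain was led by Col9a3, a chain of type IX collagen, best known from cartilage, at 6.15 ± 0.27 there and no more than 3.02 in any other tissue. Its excess was 3.31 ± 0.06, and those of Col9a2 (1.01 ± 0.08), Col11a2 (0.78 ± 0.08), Col8a2 (0.56 ± 0.10) and Col11a1 (0.42 ± 0.09) were smaller. The cartilage marker list averaged 3.63 in brain, against 3.04 to 4.05 over the 6 tissues. In blood the leaders were Col22a1 (1.32 ± 0.08), Col20a1 (1.16 ± 0.13), Col11a2 (1.15 ± 0.10), Col26a1 (0.99 ± 0.11) and Col7a1 (0.92 ± 0.11), each with a mean under 5.

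In total 14 collagens lay under the median of all genes in every tissue: Col2a1, Col4a6, Col7a1, Col9a1, Col9a2, Col10a1, Col11a1, Col11a2, Col17a1, Col20a1, Col22a1, Col23a1, Col24a1 and Col26a1. The files carry no detection calls, so whether such genes were above background is not given. All 5 blood leaders and 2 of the 3 genes called after phosphine are among them. The other 23 passed that median in at least 1 tissue.

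The main question was what phosphine did to these genes, and the answer in these arrays was small. Over 23 comparisons of phosphine with air, which make 851 pairs of a collagen gene and a comparison, 3 pairs were called. Col24a1 was lower in heart at 3 h, and Col16a1 and Col7a1 were higher in lung at 3 h. In the 5 solid tissues the 95% interval of the difference lay within a 2-fold change for 685 of 740 pairs (92.6%). For those pairs a change of 2-fold or more in intensity lay outside the interval. The pairs include the 14 collagens under the median of all genes in every tissue, and were not split by brightness. Where a gene is near background, a narrow interval does not exclude a 2-fold change of its RNA. Without adjustment, 70 of the 740 pairs (9.46%) had a p under 0.05, where 11.1% of the pairs over all genes did. In blood the interval lay within 2-fold for only 24 of 111 pairs (21.6%), and a 2-fold change of a collagen could not be seen there for most genes.

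The counts are read against the share of all genes called in the same comparison. In lung these shares were 5.8%, 11.6%, 0.0967% and 0.00744% at 1, 3, 6 and 24 h, and 0, 2, 0 and 0 collagens were called. In heart they were 1.33%, 3.33%, 0.35% and 0.0819%, with 0, 1, 0 and 0 collagens. No collagen was called in kidney (3.12%, 6.39%, 0.35% and 0.0% of all genes), liver (0.335%, 3.85%, 0.223% and 0.0%), brain (0.149%, 0.506%, 0.0% and 0.0%) or blood (0.00744%, 6.6% and 0.0521% at 1, 3 and 6 h) by limma. At an unadjusted p under 0.05 there were 21 of 148 collagen pairs in kidney (14.2%, against 13.1% over all genes), 13 in liver (8.78% against 9.69%) and 12 in brain (8.11% against 7.26%). There were also 12 in heart (8.11% against 11.5%), 12 in lung (8.11% against 13.9%) and 9 of 111 in blood (8.11% against 13.4%). Single comparisons fell on both sides of the share of all genes. Among those above it were brain at 3 h (18.9% against 8.65%) and kidney at 24 h (16.2% against 5.5%). Liver at 24 h was also above it (13.5% against 7.14%). Among those below it were lung at 1 h (2.7% against 18.2%) and at 3 h (16.2% against 25.3%). Whether these shares differed from those of all genes was not tested. The median collagen difference lay between -0.12 (kidney at 24 h, where 10 of 37 were above 0) and 0.11 (heart at 1 h, 27 of 37) in every solid comparison, and the median of all genes between -0.03 and 0.01.

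**Figure D2:**
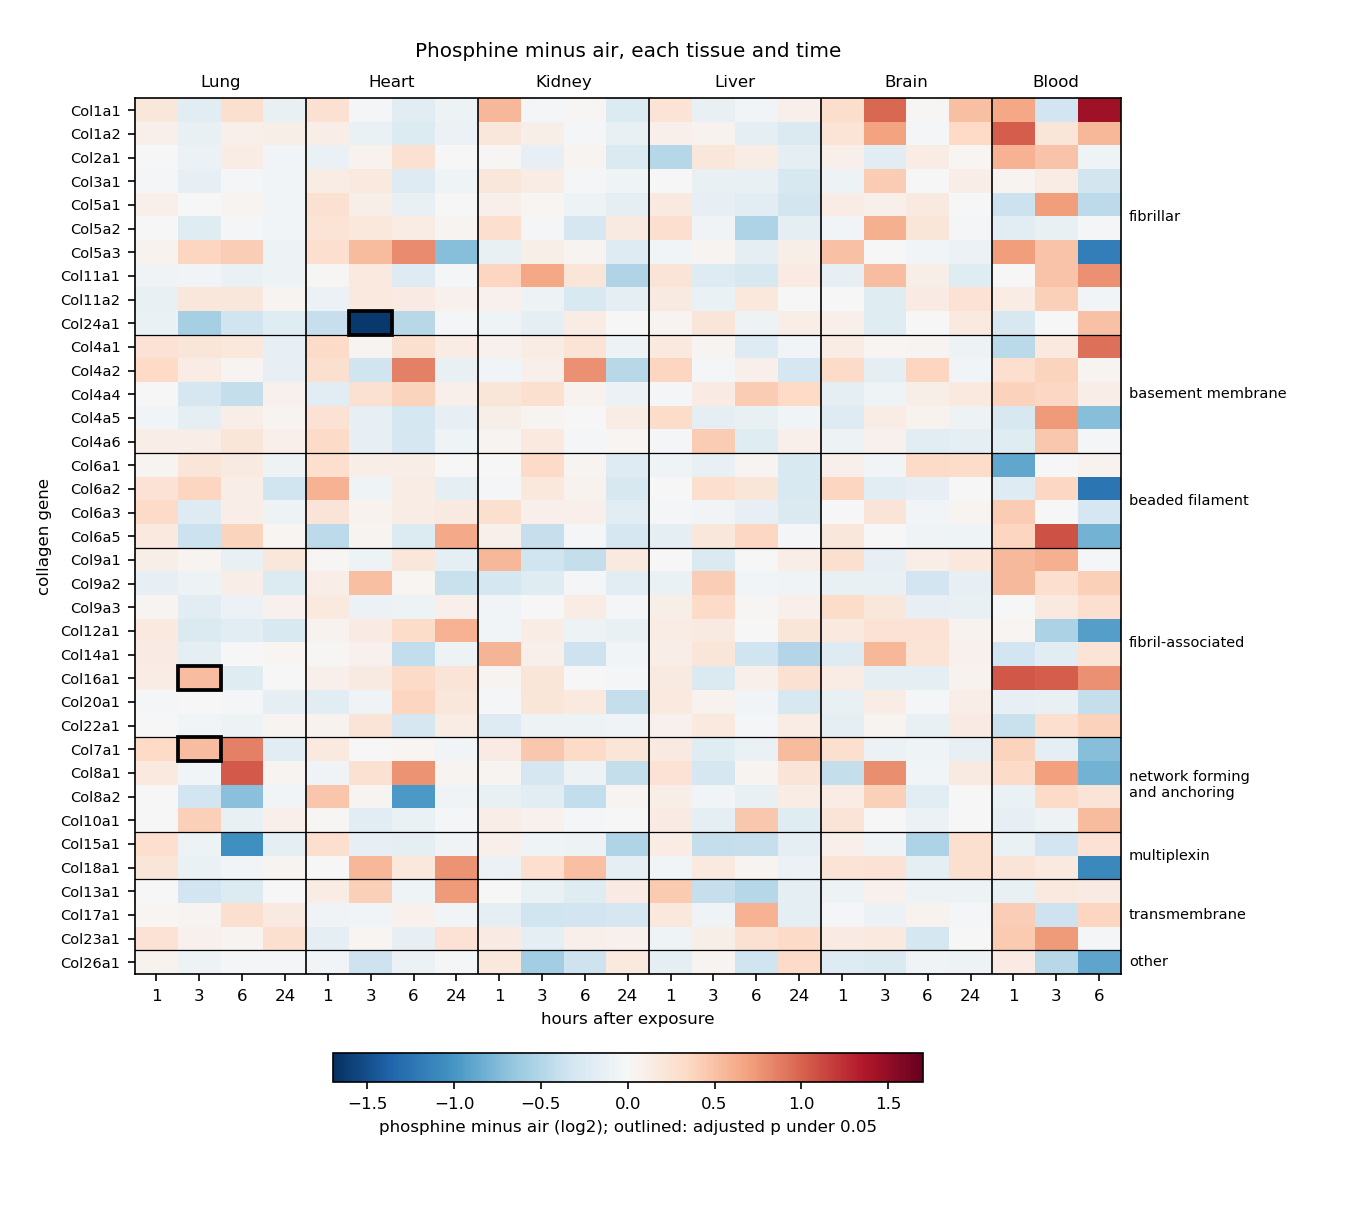
Phosphine minus air in log2 for each of the 37 collagen genes (rows, by class) in each tissue at each time in hours (columns); outlined cells passed an adjusted p under 0.05. The 3 outlined cells are Col24a1 in heart at 3 h and Col16a1 and Col7a1 in lung at 3 h, most other solid-tissue cells are pale, and the blood columns carry stronger colours without a call.

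Col24a1 showed the largest difference in a solid tissue. This minor fibrillar collagen is known from developing bone and eye. In heart at 3 h the exposed rats read 3.98, 3.08, 3.34 and 3.09, and the air rats 4.34, 5.22, 5.53 and 4.94. Every exposed rat was below every air rat. The difference was -1.64 ± 0.33 (SE; 95% interval -2.31 to -0.96; adjusted p = 0.00619, limma), a 3.11-fold lower level. Without Rat729, whose heart array carried hepatocyte genes, it was -1.54 (adjusted p = 0.0253). The call was lost when only these groups entered the fit (adjusted p = 0.0976). Against the air hearts of all times the difference was -1.23. The 3 h air mean of 5.01 was the highest of the air means (4.39 at 1 h, 4.31 at 6 h and 4.57 at 24 h).

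At the other times the Col24a1 groups overlapped in heart. The differences were -0.39 ± 0.33 at 1 h, -0.47 ± 0.40 at 6 h and -0.03 ± 0.33 at 24 h. A test of whether the heart effect differed between times called no collagen (0.424% of all genes were called). At 3 h the smooth muscle and pericyte list had a median difference of -0.28 in heart, with list means of 6.05 to 6.51 in exposed and 6.46 to 6.88 in air rats, and none of its 8 genes was called. The cardiomyocyte list had a median of -0.21, 11.59 to 12.63 against 12.58 to 12.66, with 0 of 7 called. The endothelial list had a median of -0.10, 7.49 to 7.97 against 7.90 to 8.03, with 1 of 8 called lower. Without Rat729 these 3 medians were -0.22, -0.12 and 0.03. The 3' minus 5' difference of control transcripts, a measure that grows as RNA degrades, was 0.63 in exposed and 0.445 in air hearts, with overlap. The part of these in the result was not tested.

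Col16a1, which sits at fibril surfaces and basement membranes, was higher in lung at 3 h. The exposed rats read 7.75, 7.59, 7.94 and 7.60, and the air rats 7.06, 6.98, 7.67 and 7.08. The groups overlapped because air Rat738 stood at 7.67 and the other air rats at 7.08 or lower. The difference was 0.52 ± 0.17 (adjusted p = 0.0403, limma), a 1.44-fold higher level. Leaving out Rat738 gave 0.68 (adjusted p = 0.0083), and leaving out Rat730 gave 0.45 (adjusted p = 0.139). At 1, 6 and 24 h the differences were 0.13 ± 0.17, -0.21 ± 0.20 and -0.01 ± 0.17.

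Col7a1, the collagen of the anchoring fibrils that hold epithelium to the tissue beneath, was the other gene called in lung at 3 h. The exposed rats read 4.49, 4.65, 4.41 and 4.95 and the air rats 4.03, 3.95, 4.12 and 4.26, with no overlap. The difference was 0.53 ± 0.17 (adjusted p = 0.0454), a 1.45-fold higher level. At 6 h the exposed rats read 4.36, 4.93, 4.10 and 4.39 and both air rats 3.62 and 3.54, again with no overlap. That difference, 0.86 ± 0.21, was not called (adjusted p = 0.116). At 1 h it was 0.34 ± 0.17 and at 24 h -0.19 ± 0.17, and the F test of the lung effect between times, which called 6.38% of all genes, gave Col7a1 an adjusted p of 0.0631. No collagen was called in that test.

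Both lung calls were weak. The Col7a1 call was lost whichever of the 8 rats was left out (adjusted p up to 0.145), and the Col16a1 call was lost for 6 of 8. Leaving out Rat729 and Rat733, whose lungs carried skeletal muscle genes, gave 0.49 for Col16a1 (adjusted p = 0.125) and 0.48 for Col7a1 (adjusted p = 0.149). With the rat as a block the adjusted p was 0.302 and 0.14. In the same lungs the neutrophil list had a median difference of 0.77 (3 of 6 genes called higher, list means of 5.49 to 6.04 against 4.67 to 5.23) and the mesothelium list one of 0.32 (1 of 4 called higher, 5.27 to 5.56 against 5.03 to 5.27). The macrophage list had 0.42 (5 of 8 called higher and 1 lower, 7.27 to 7.39 against 6.91 to 7.24), and the fibroblast list 0.17 (1 of 8 called higher, 8.87 to 9.22 against 8.94 to 9.27). The smooth muscle and pericyte list had 0.11 (1 of 8 higher and 1 lower, 7.10 to 7.32 against 7.05 to 7.17). The endothelial list had 0.04 (1 of 8 higher and 2 lower, 9.19 to 9.54 against 9.32 to 9.50). The alveolar list had 0.03 (2 of 7 higher, 12.45 to 12.55 against 12.17 to 12.52). Without Rat729 and Rat733 the neutrophil median was 0.72, the macrophage median 0.48 and the mesothelium median 0.24. In that fit the B cell median was -1.2 (2 of 3 genes called lower) and the adipocyte median 1.18 (0 of 5 called). The cardiomyocyte median was 0.59, the skeletal muscle median -0.41 and the T cell median -0.29, with no gene of these lists called. Their part in the results was not tested.

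**Figure D3:**
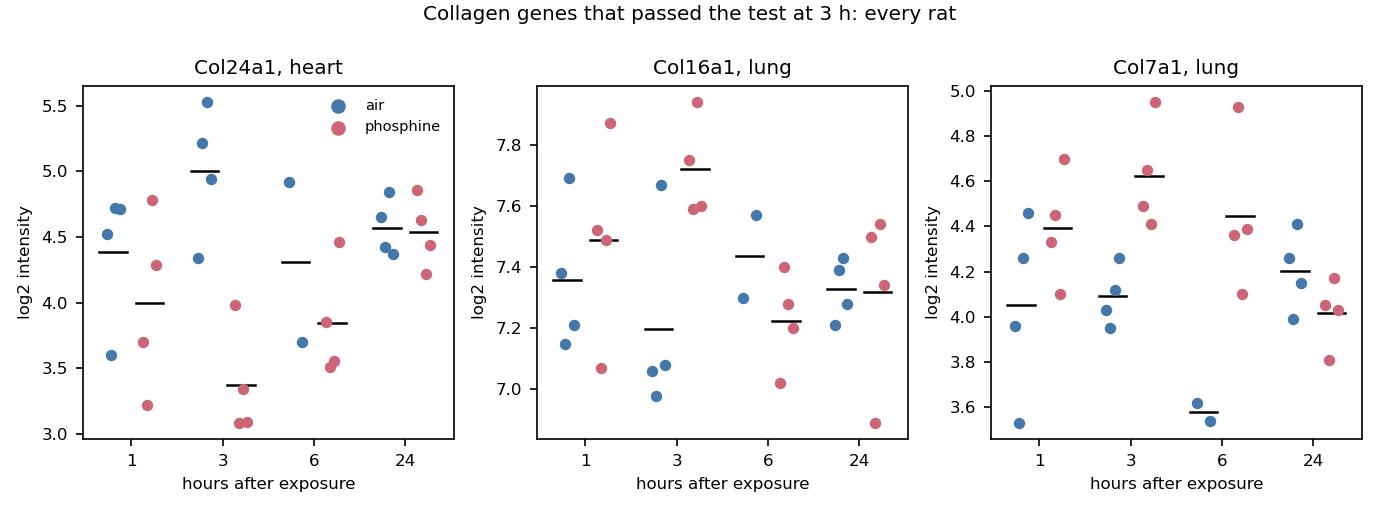
Log2 intensity of Col24a1 in heart and of Col16a1 and Col7a1 in lung in every rat (points; blue air, red phosphine) at 1, 3, 6 and 24 h after exposure, with black bars for group means. Col24a1 is separated at 3 h only (3.37 against 5.01), Col16a1 has 1 air rat among the exposed rats at 3 h, and Col7a1 is separated at 3 and 6 h.

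The effect at 3 h was also tested for a difference between the 5 solid tissues. There, 4 of 37 collagens (10.8%) were called where 14.4% of all genes were: Col24a1 (adjusted p = 4.29e-06), Col7a1 (0.0193), Col9a2 (0.0291) and Col5a2 (0.0442). This test uses 1 spread per gene over the 5 tissues, without the rat as a block. Col24a1 spread more in air hearts (SD 0.52) than in air brain, kidney, liver and lung (0.13 to 0.31), so its p can be too small. Col24a1 was -1.64 in heart and -0.57 ± 0.22 in lung, and between -0.21 and 0.21 in brain, kidney and liver. Col7a1 was 0.53 in lung and 0.46 ± 0.15 in kidney (adjusted p = 0.0589), and between -0.21 and 0.01 in the others. Col9a2, a type IX chain, was 0.51 ± 0.19 in heart and 0.42 ± 0.19 in liver and between -0.20 and -0.09 in the others. Its heart values were 4.0, 4.03, 3.62 and 3.92 after phosphine and 3.50, 3.22, 3.66 and 3.13 after air, a slight overlap. Without the arrays that carried another organ's genes, Col24a1 (adjusted p = 6.29e-05), Col5a2 (0.0369) and Col7a1 (0.0412) were called in the test between tissues, and Col9a2 was not (0.0587). Col9a2 was then 0.47 in heart. At 1, 6 and 24 h no collagen was called in this test, where 3.27%, 1.35% and 0.625% of all genes were. Within kidney, liver and brain no collagen differed between times either (1.75%, 0.476% and 0.0893% of all genes).

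Col5a2, called in the test between tissues, had its largest difference in brain. In brain at 3 h the exposed rats read 6.35, 6.42, 6.56 and 7.26 and the air rats 6.28, 6.32, 5.71 and 5.85. The groups did not overlap, though the lowest exposed rat (6.35) was close to the highest air rat (6.32). The difference of 0.61 ± 0.15 missed the adjusted threshold (adjusted p = 0.0794), and the other Col5a2 probe set gave 0.37. Col5a2 was called when exposed Rat728, air Rat732 or air Rat733 was left out. In lung the same gene was -0.20 ± 0.12, with 10.74, 10.62, 10.61 and 10.92 after phosphine and 10.94, 10.84, 10.99 and 10.94 after air.

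Other fibrillar collagens of brain stood above air at 3 h without passing the test. Type I chain Col1a1 read 5.83, 7.06, 6.51 and 8.21 in Rat728, Rat729, Rat730 and Rat731 against 6.43, 5.50, 6.09 and 5.68 in air, a difference of 0.97 ± 0.43 (adjusted p = 0.52). Col1a2 read 8.60, 9.17, 8.93 and 10.09 against 8.71, 8.27, 8.86 and 8.19, a difference of 0.69 ± 0.26 (adjusted p = 0.414). Rat731 was the highest exposed rat and Rat728 the lowest for both chains and for Col3a1. Col3a1 read 7.22, 8.08, 8.13 and 8.24 against 7.62, 7.01, 7.69 and 7.64 (0.43). Col8a1, a network collagen of vessel walls and of the cornea, read 5.19, 4.66, 5.43 and 5.50 against 4.57, 4.34, 4.03 and 4.70 (0.79 ± 0.21, adjusted p = 0.13), and Col14a1 differed by 0.57 ± 0.24. Of the 10 fibrillar collagens 7 were above 0, with a median of 0.26, while the 5 basement membrane collagens ran from -0.17 to 0.13. The second probe sets of Col1a1 and Col1a2 gave 0.68 and 0.76.

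Marker lists were read in the same brains. The fibroblast list had a median difference of 0.33 with means of 4.98 to 5.56 in exposed and 4.86 to 5.20 in air rats, and none of its 8 genes was called. The endothelial list had a median of -0.46, 5.35 to 5.57 against 5.82 to 6.02, with no overlap and 1 of 8 genes called lower. The meninges list, which is higher in kidney than in brain, differed by 0.08 in the median, 4.33 to 4.62 against 4.39 to 4.50, with 0 of 7 called. The 3' minus 5' difference of control transcripts was 0.359 in exposed and 0.514 in air brains, with no overlap. The part of these in the collagen values was not tested.

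**Figure D4:**
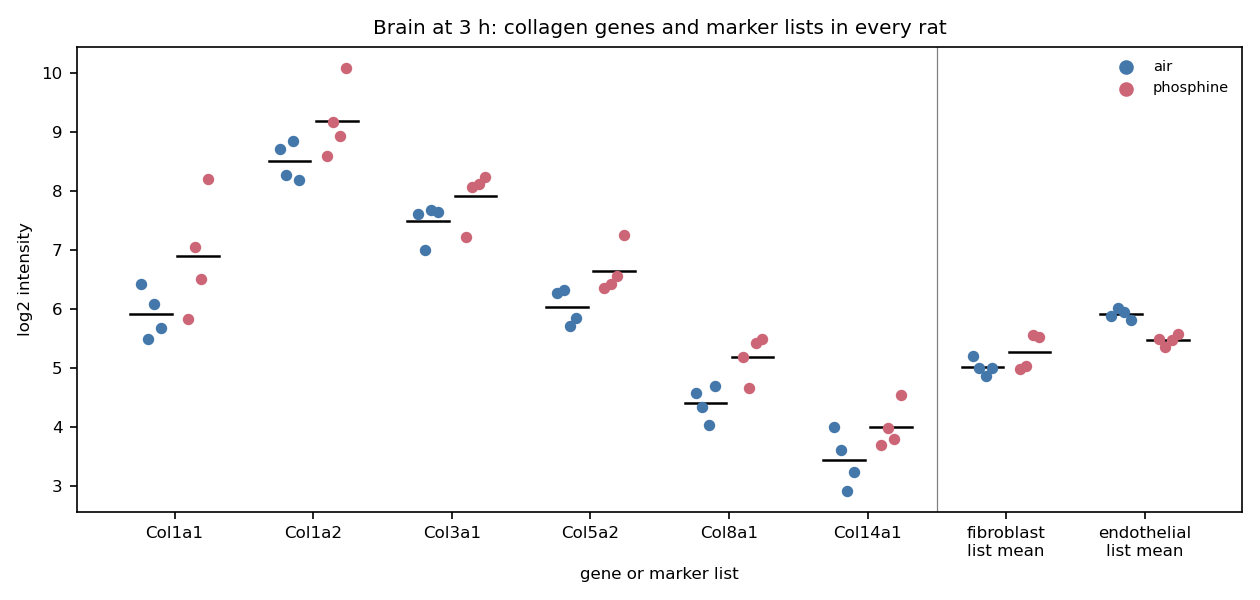
Log2 intensity in brain at 3 h of 6 collagen genes and the mean of the fibroblast and endothelial marker lists, with a point per rat (blue air, red phosphine) and black bars for group means. Col5a2 separates the groups narrowly, Col1a1 and Col1a2 overlap with 1 high exposed rat at 8.21 and 10.09, and the endothelial list is lower in all exposed rats.

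The panel of common collagens stayed near its air level in most tissues. Over the 20 solid comparisons Col3a1 ran from -0.27 (liver at 24 h) to 0.43 (brain at 3 h), Col4a1 from -0.22 to 0.32 and Col6a3 from -0.25 to 0.33. For each of these 3 genes all 20 intervals lay within a 2-fold change. Col1a2 ran from -0.25 to 0.69 with 19 of 20 intervals inside, and Col5a2 from -0.53 to 0.61 with 19. Col1a1 ran from -0.23 to 0.97, and 15 of its 20 intervals were inside. Col4a2 ran from -0.47 to 0.85, Col15a1 from -1.04 to 0.29 and Col18a1 from -0.16 to 0.76, each with 17 intervals inside. Col6a3 came nearest to a call in lung at 1 h, where the exposed rats read 11.15, 11.04, 10.56 and 10.77 and the air rats 10.63, 10.40, 10.63 and 10.55 (0.33 ± 0.12, adjusted p = 0.11). It was called there when Rat716, the lung with hepatocyte genes and the lowest exposed value, was left out.

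**Figure D5:**
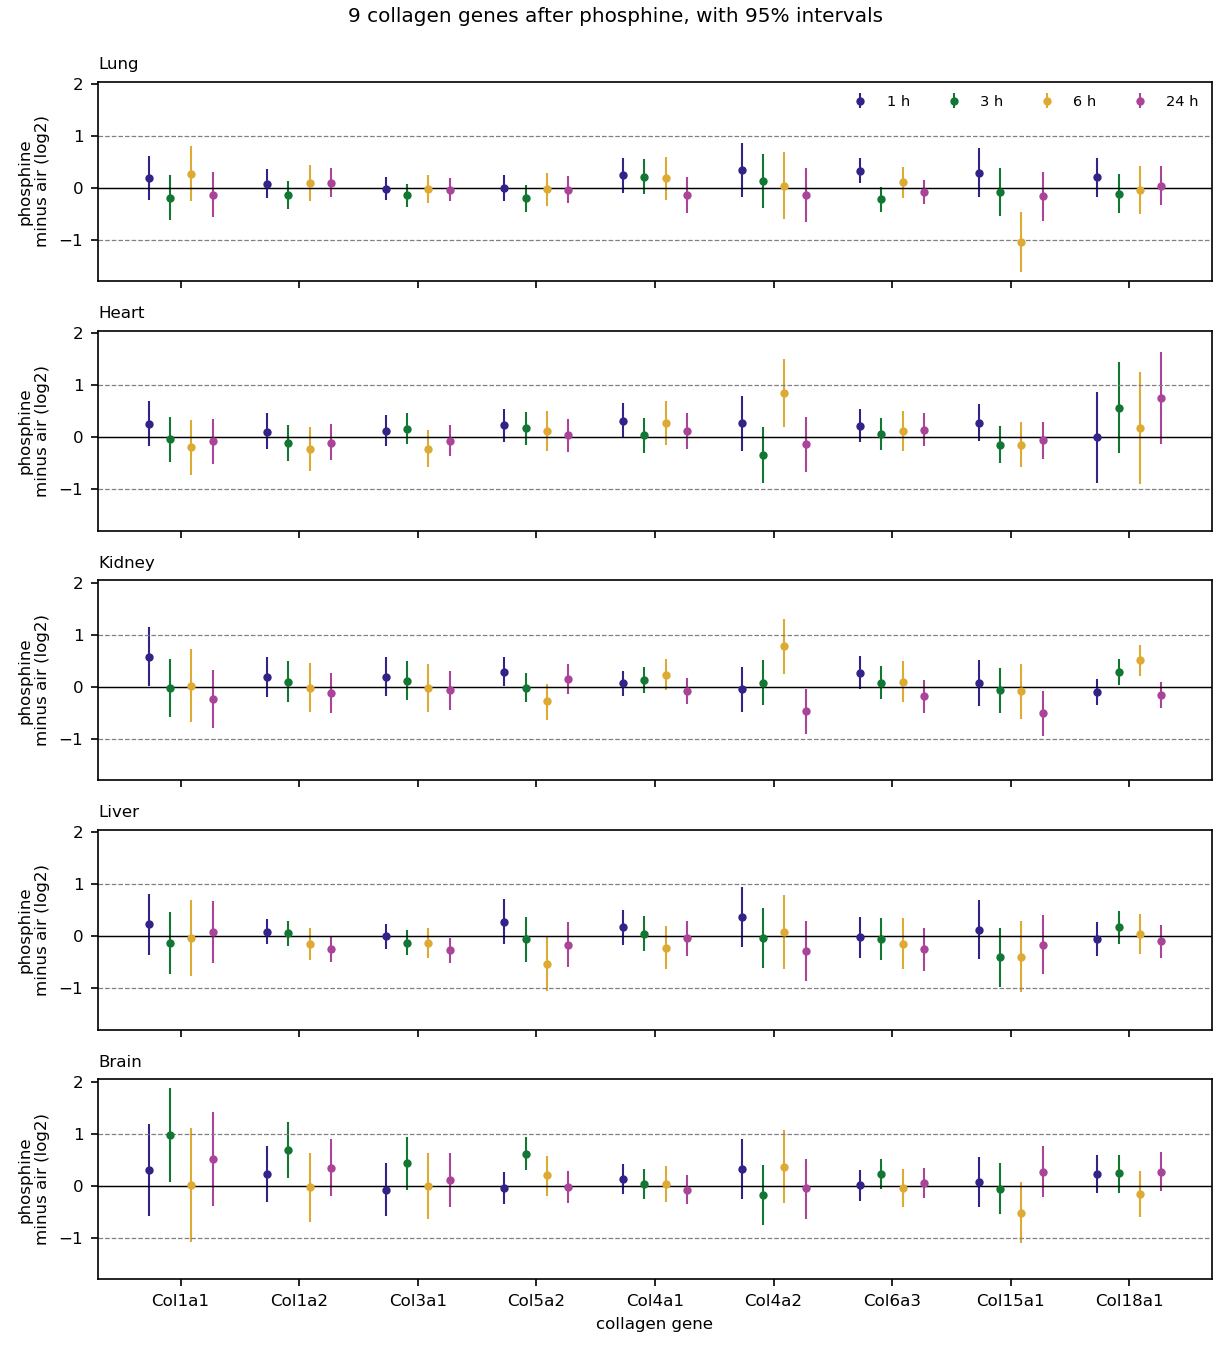
Phosphine minus air in log2 with its 95% interval for 9 collagen genes in the 5 solid tissues, coloured by hours after exposure; dashed lines mark a 2-fold change either way. Most intervals cross 0 and stay between the dashed lines; Col15a1 in lung at 6 h (-1.04) and Col1a1 in brain at 3 h (0.97) stand farthest out.

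At 6 h, where only 2 air rats were available, a few collagens showed larger differences that were not called. In lung Col8a1 read 5.64, 5.86, 5.86 and 5.05 against 4.48 and 4.65, a difference of 1.04 ± 0.23 (adjusted p = 0.0818) with no overlap. Col15a1 of the vessel wall read 7.11, 7.85, 6.62 and 7.10 against 8.24 and 8.18, a difference of -1.04 ± 0.28 (adjusted p = 0.149), and its other probe set gave -1.06. Both genes passed a 2-fold difference, and with Col24a1 in heart they were the 3 solid pairs that did. Col15a1 was called when Rat760 was left out, and Col8a1 when Rat789 was. In heart Col8a2 read 3.59, 4.73, 4.10 and 3.41 against 5.11 and 4.76 (-0.98 ± 0.31, adjusted p = 0.2).

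The type IV pair read from the shared interval was set side by side after exposure. In heart at 6 h Col4a2 read 8.48, 9.42, 8.39 and 8.44 against 8.03 and 7.64 (0.85 ± 0.32, adjusted p = 0.332), where Col4a1 differed by 0.27 ± 0.20. In kidney at 6 h Col4a2 read 8.25, 8.25, 8.66 and 7.63 against 7.50 and 7.33 (0.78 ± 0.26, adjusted p = 0.213), where Col4a1 differed by 0.23 ± 0.14. Neither gene was called, and the difference between them was not tested. Col18a1 in the same kidneys differed by 0.51 ± 0.15 (adjusted p = 0.146) with no overlap. The 3' minus 5' difference of control transcripts was 0.707 in these exposed and 0.593 in the air kidneys, also with no overlap. Its part in these values was not tested.

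In kidney at 3 h 6 collagens (16.2%) had an unadjusted p under 0.05, where 19.6% of all genes did, and 3 are given. Col7a1 read 3.48, 3.92, 3.37 and 4.19 against 3.60, 3.22, 3.01 and 3.32 (0.46 ± 0.15, adjusted p = 0.0589). Col26a1 read 3.98, 3.64, 3.08 and 4.13 against 4.26, 4.32, 4.18 and 4.44 (-0.59 ± 0.19, adjusted p = 0.0626), with every exposed rat below every air rat. Col11a1, a nucleator of fibrils, read 5.39, 5.58, 5.53 and 5.72 against 4.15, 5.37, 5.35 and 4.70 (0.66 ± 0.24, adjusted p = 0.101). All 3 are dim genes. Both Col7a1 and Col26a1 were called when exposed Rat728 was left out, Col7a1 also without Rat730 or air Rat732, and Col26a1 also without Rat731. In heart Col5a3, a minor fibril chain, differed by 0.80 ± 0.29 at 6 h and by -0.73 ± 0.24 at 24 h without a call, and its groups overlapped at neither time.

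On 3 heart arrays with another organ's genes, collagens that lead in that organ were high. Col18a1, the liver's leading collagen, read 8.17 in the heart of Rat729 at 3 h, where the other exposed hearts read 5.37 to 5.89. It read 7.66 in the heart of Rat741 at 24 h, where the other exposed hearts read 5.50 to 6.13. Both hearts carried hepatocyte genes. Col13a1 and Col6a5, the lung-rich collagens, read 5.49 and 5.85 in the heart of Rat749 at 24 h, which carried alveolar genes, and at most 3.60 in the other exposed hearts. Leaving these arrays out moved the Col18a1 difference from 0.56 to -0.05 at 3 h and from 0.76 to 0.48 at 24 h. It moved Col13a1 from 0.72 to -0.01 and Col6a5 from 0.65 to 0.06 at 24 h. In liver at 24 h, Col4a4 moved from 0.34 to -0.07 without Rat741, whose array carried distal nephron genes. Other collagens of heart at 24 h moved away from 0 without these arrays: Col8a1 from 0.04 to 0.53, Col23a1 from 0.24 to 0.58 and Col20a1 from 0.19 to 0.43. None of these differences was called with or without the arrays.

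The blood values spread more widely than those of the solid tissues. The 3' minus 5' difference of control transcripts was 1.1 in exposed and 0.783 in air blood at 1 h. At 3 h it was 0.952 and 0.912, with overlap at both times. Col16a1 read 6.68, 6.53, 6.83 and 6.30 at 1 h against 5.53, 4.95, 4.70 and 6.96 in air, a difference of 1.05 ± 0.40. At 3 h it read 6.41, 5.96, 5.90 and 6.08 against 5.49, 5.56, 4.89 and 4.26, a difference of 1.03 ± 0.40 (adjusted p = 0.117) with no overlap. The fibrillar chain Col1a2 read 4.55, 4.48, 4.70 and 4.55 at 1 h against 3.38, 3.46, 3.84 and 3.49 (1.03 ± 0.38, adjusted p = 0.47), also with no overlap. Col6a5 at 3 h came nearest to a call, with 4.45, 4.47, 3.57 and 4.44 against 2.83, 3.18, 3.61 and 2.98 (1.08 ± 0.34, adjusted p = 0.0536), and was called without Rat730. With the rat as a block, which pools the spread of all tissues, 6, 6 and 3 blood collagens were called at 1, 3 and 6 h in place of 0. That fit called 20.5%, 41.4% and 24.2% of all genes, and its 6 h comparison rests on 1 air sample. At 24 h, with no air sample, the exposed samples of Rat741 and Rat742 read 5.49 and 5.22 for Col16a1, 3.90 and 4.06 for Col1a2 and 3.82 and 3.70 for Col3a1.

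Genes that make, cross-link, cut and bind collagen were listed beside the collagens. These 8 lists held 79 measured genes, and 38 of their 1817 pairs with a comparison were called (2.09%, against 1.92% over all genes). In lung at 3 h 16 of the 79 genes were called, where 11.6% of all genes were. Without Rat729 and Rat733, 11 of these 16 were called, and Fkbp10 (0.44), P4ha3 (-0.55), Timp4 (0.43), Ctsk (0.47) and Lama2 (-0.34) were not. Among 17 modification and folding genes in that comparison, 3 rose and 2 fell. Plod3, a lysyl hydroxylase, rose by 0.59 ± 0.13 (adjusted p = 0.00364), and Fkbp10, a folding helper, by 0.53 ± 0.14 (0.0147). The prolyl hydroxylase subunits split: P4ha2 rose by 0.43 ± 0.10 while P4ha1 fell by 0.49 and P4ha3 fell by 0.52. Of 5 metalloproteinase inhibitors, 3 rose: Timp1 by 0.54 ± 0.13 (0.00753), Timp3 by 0.50 ± 0.12 (0.00642) and Timp4 by 0.48 ± 0.15 (0.0422), and the list's median was 0.48 against 0.01 for all genes.

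Of 13 breakdown and uptake genes in lung at 3 h, Mmp8, the neutrophil collagenase, rose by 1.25 ± 0.20 (adjusted p = 0.000205) and Ctsk, a collagen-cutting cathepsin, by 0.50 ± 0.16, while Mmp16 fell by 0.73. Mmp8 was already higher at 1 h (0.86 ± 0.20, adjusted p = 0.00964). The collagen receptor chain Itga11 fell by 0.78 (1 of 5 receptors), and Smad2, of the collagen signalling list, fell by 0.27. Among 14 other basement membrane genes the laminin chains Lama5 (0.63 ± 0.12) and Lama4 (0.39 ± 0.12) rose and Lama2 fell by 0.56. Loxl2, a cross-linking enzyme, rose at 1 h by 0.64 ± 0.19 (adjusted p = 0.0445), the 1 call of 6 in its list. Without Rat716 Loxl2 was 0.86 (adjusted p = 0.00441) and Mmp8 0.90 (0.0174) at 1 h. Also in lung at 1 h, Sec24d rose by 0.30 and Lama5 by 0.50, while Timp2 fell by 0.26 (adjusted p = 0.0148). Without Rat716 Timp2 was -0.23 and not called (adjusted p = 0.0614), and Sec24d (0.35) and Lama5 (0.61) were still called.

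In heart and kidney the clearest call of the collagen signalling list of 12 was Ccn2, a matrix protein that TGF-beta induces. It rose in heart by 1.43 ± 0.28 at 1 h (adjusted p = 0.00651) and 1.17 ± 0.28 at 3 h, and in kidney by 1.42 ± 0.24 at 1 h (0.00107) and 1.04 ± 0.24 at 3 h, with no overlap between groups. In these 4 comparisons Col4a1, Col1a2, Col3a1 and the other panel collagens were not called. In kidney at 3 h the folding genes Crtap and Serpinh1, the collagen chaperone, fell by 0.59 and 0.30, and at 1 h the proteoglycan Lum rose by 1.25 ± 0.30 with overlapping groups. Other kidney calls at 3 h were Smad3, which rose by 0.37, and Lama3 and Mmp16, which fell by 0.57 and 0.38. Without the arrays that carried another organ's genes, Ccn2 was 1.31 in heart at 3 h (adjusted p = 0.0151) and 1.43 in kidney at 1 h (0.00392), and Lum was 1.23 (0.052). In liver at 3 h Lamc1 rose by 0.93 ± 0.16 and Mmp15 by 0.58 ± 0.13, while Lama3 fell by 1.04 and Smad2 by 0.6. In blood, Crtap fell by 1.49 and Itga1 rose by 1.65 ± 0.39 at 3 h, and Lamb2 rose by 2.21 ± 0.35 at 1 h.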

How the data were processed

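The deposited values are log2 intensities per probe set, made by the authors with RMA and Partek per the submitters' processing notes, whose versions are not stated. RMA quantile-normalizes arrays, which can shrink shifts shared by most genes, and whether tissues were normalized together is not given. Arrays have no read depth, and their number limits the precision. Of 31139 probe sets, 19063 list 1 gene, and the brightest by mean over all 174 arrays stood for each of 13438 genes, with no dim gene left out.

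Models were fitted per tissue in limma 3.58.1 (R 4.3.3; the package data.table, version 1.17.8, read the values), with a mean per exposure and time. Differences between times and tissues used moderated F tests, and baselines used air arrays. P-values were adjusted by Benjamini-Hochberg over all genes. The method was tested on simulated data. Tables used python 3.11.15.

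The members, classes, lists and alternatives were chosen with earlier results of these data known. Values are given for called collagens, a panel of 9, the 5 leaders of each tissue and up to 3 called genes per list and comparison; collagens near the threshold, past 2-fold or touched by arrays with another organ's genes were added after their values were seen. Alternatives were median centring, quantile normalization, a 40th percentile filter, the mean of probe sets, eBayes with trend, only the groups compared, pooled air, the rat as a block, and each rat left out. Leaving out 9 arrays with another organ's genes was chosen after seeing the data. The solid tissues of a group come from the same rats, which pairs them, and the correlation within a rat was 0.021. Coordinates and sequences come from RefSeq (GRCr8). P-values of the fits within a tissue measure the spread between rats. Those of the air comparisons and of the test between tissues pool arrays of several tissues per rat, without a term for the rat.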

Additional observations from a re-analysis of the deposited data

Results flagged for a closer look

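In 38 groups of the collagens named with values, 3 held a rat apart from the others of its group, and chance alone flags about 1 in 20 groups. Col16a1 in lung at 3 h stood at 7.67 in air Rat738, where the next air rat stood at 7.08. Col3a1 in brain at 3 h stood at 7.22 in exposed Rat728, where the next stood at 8.08, and at 7.01 in air Rat733, where the next stood at 7.62.

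The phosphine effect at 3 h differed between the 5 solid tissues for 4 of 37 collagens (10.8%, where 14.4% of all genes were called) by limma's moderated F test, with adjusted p of 4.29e-06 for Col24a1, 0.0193 for Col7a1, 0.0291 for Col9a2 and 0.0442 for Col5a2.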

How the results depend on the processing

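Of 352 values recomputed under other settings, 317 kept their direction and side of the threshold, or for counts stayed within 1.5 times, and no called value changed its sign. The Col24a1 call in heart held in each left-out rat (-1.86 to -1.46). The cause of the changes below was not tested, except that the filter removes dim genes, Col24a1 among them. Counts of called collagens changed as follows. With air of all times pooled they were 1 in brain at 3 h, 2 in heart at 6 h, 3 in kidney at 3 h, 2 in kidney at 6 h, 2 in liver at 6 h, 4 in lung at 3 h and 2 in lung at 6 h. With only the groups compared they were 0 in heart and 1 in lung at 3 h. With the filter they were 0 in heart and 1 in lung at 3 h, and 1 in the test between tissues at 3 h. With the rat as a replicate block, which pools the spread over all tissues, they were 0 in lung at 3 h and 6, 6 and 3 in blood at 1, 3 and 6 h, and the block changed no other count. Without the arrays that carry another organ's genes there was 1 in lung at 1 h (Col6a3) and 1 in lung at 3 h (Col5a3). Those fits called 5.06% and 8.22% of all genes. Median centring gave 1 in the test between times in lung (Col7a1) and 12 higher in air liver. In air, the filter left 0 higher and 16 lower in brain, 2 lower in heart, and 10 higher and 2 lower in kidney. It left 11 lower in liver, 15 higher and 1 lower in lung and 0 higher in blood. How many collagens passed the filter is not given. Shares of all genes are not given for the filter, pooled air, median centring or only the groups compared. Counts under those settings cannot be read against all genes. With each rat left out in turn the counts ran from 0 to 1 in brain at 3 h, 0 to 2 in kidney at 3 h, 0 to 1 in liver at 3 h (Col9a3 without Rat728), 0 to 1 in lung at 1 h, 0 to 2 in lung at 3 h, 0 to 1 in lung at 6 h and 0 to 1 in blood at 3 h. Groups of 2 air rats at 6 h, and blood, give the widest intervals, which reach a median of 0.88 to either side in blood against 0.35 in solid tissues.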
